A study of Argiope bruennichi with 12 samples.

Results

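The enzymes described here handle fatty acids and ketone bodies in overwintering spiderlings of the wasp spider Argiope bruennichi. They are the 3 genes that the study names acetoacetyl-CoA synthetase (LOC129964270), acyl-CoA dehydrogenase (LOC129963497) and fatty acid amide hydrolase 2 (LOC129976441), out of 37459 genes in the count table. RNA was sequenced from 12 pools of 15 spiderlings, with 4 pools per winter regime, after 3 months inside the egg sac. The regimes were warm (15°C by day, -5°C by night), cold (5°C by day, -15°C by night) and moderate (5°C by day, -5°C by night), and warm and cold were each compared with moderate and with each other. All spiderlings were first instars from eggs of mated females collected at the northern range edge in Estonia. Each regime ran in a climate cabinet of its own, with the cold cabinet of another make, so regime and cabinet cannot be told apart. A pool holds whole animals, so fewer cells of a type and less RNA per cell cannot be told apart either. The labels do not say which egg sacs or mothers the pools came from. The p-values set differences against the spread between these pools and take the pools as independent. If pools shared an egg sac or a mother, the p-values could be too small.

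Acetoacetyl-CoA synthetase is a cytosolic ligase that joins the ketone body acetoacetate to coenzyme A, and its product feeds the synthesis of fatty acids and sterols. Acyl-CoA dehydrogenases are flavin enzymes that introduce a double bond into an acyl-CoA, the opening step of each round of fatty acid oxidation in mitochondria, and some members of the family act in the breakdown of branched amino acids instead. Fatty acid amide hydrolase 2 is known from human as a membrane-bound serine hydrolase that splits fatty acid amides into a free fatty acid and an amine. Animals that overwinter without food draw on stored lipid, and these enzymes stand at the use of acetyl units, the burning of acyl chains and the breakdown of fatty acid amides.

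The members were chosen from readouts of these same pools. The study selected acetoacetyl-CoA synthetase and fatty acid amide hydrolase 2 on warm against moderate, and acyl-CoA dehydrogenase on cold against moderate. It also showed acetoacetyl-CoA synthetase as an example in all comparisons of regimes. For those comparisons the values below are a description without a test. It further describes fatty acid amide hydrolase 2 in warm against cold from these pools, so that comparison is given without a test too. The remaining 3 comparisons were tested, namely acyl-CoA dehydrogenase in warm against moderate and warm against cold, and fatty acid amide hydrolase 2 in cold against moderate. They share pools with the comparisons behind the choice, so their p-values are not independent of it. Exact p-values were adjusted over 4 comparisons, these and fatty acid amide hydrolase 2 in warm against cold.

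All 3 genes are protein-coding, carry 1 annotated transcript each and overlap no other annotated gene on the assembly qqArgBrue1.1. Acetoacetyl-CoA synthetase lies on chromosome 3 from 28537710 to 28572423. Acyl-CoA dehydrogenase lies on the same chromosome, from 133676607 to 133695959. Fatty acid amide hydrolase 2 lies on chromosome 7 from 58314738 to 58347614. All 3 passed the filter on low counts, which left 14057 genes to be tested.

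The counts per pool summed to between 10800714 and 16081111. Normalized counts are these counts scaled by edgeR's TMM factors to the mean library size, so they compare pools for a gene, but not genes with each other. Moderate replicate 4 stood apart from the other moderate pools in the heat shock genes that the study names. Their 5 normalized counts summed to 1615 to 2536 in the warm pools, 4210 to 9906 in the cold pools, 1946 in moderate replicate 4 and 10799 to 19678 in the other moderate pools. The pool was kept as labelled, and whether its label is right was not tested, so moderate levels are given with and without it where it moves them.

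Acetoacetyl-CoA synthetase was highest in the warm regime, and its moderate pools differed most among themselves. The warm pools had 947, 1629, 1088 and 1161 normalized counts (replicates 1 to 4). The cold pools had 532, 206, 440 and 184, and the moderate pools had 78.8, 78.9, 33.04 and 536. All warm pools lay above all cold and all moderate pools. Cold and moderate pools overlapped through moderate replicate 4 alone, whose value was above that of every cold pool. The means were 1206 ± 295 in warm, 341 ± 172 in cold and 182 ± 237 in moderate (SD, n = 4 each), and 63.6 ± 26.45 in moderate without replicate 4 (SD, n = 3).

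**Figure D1:**
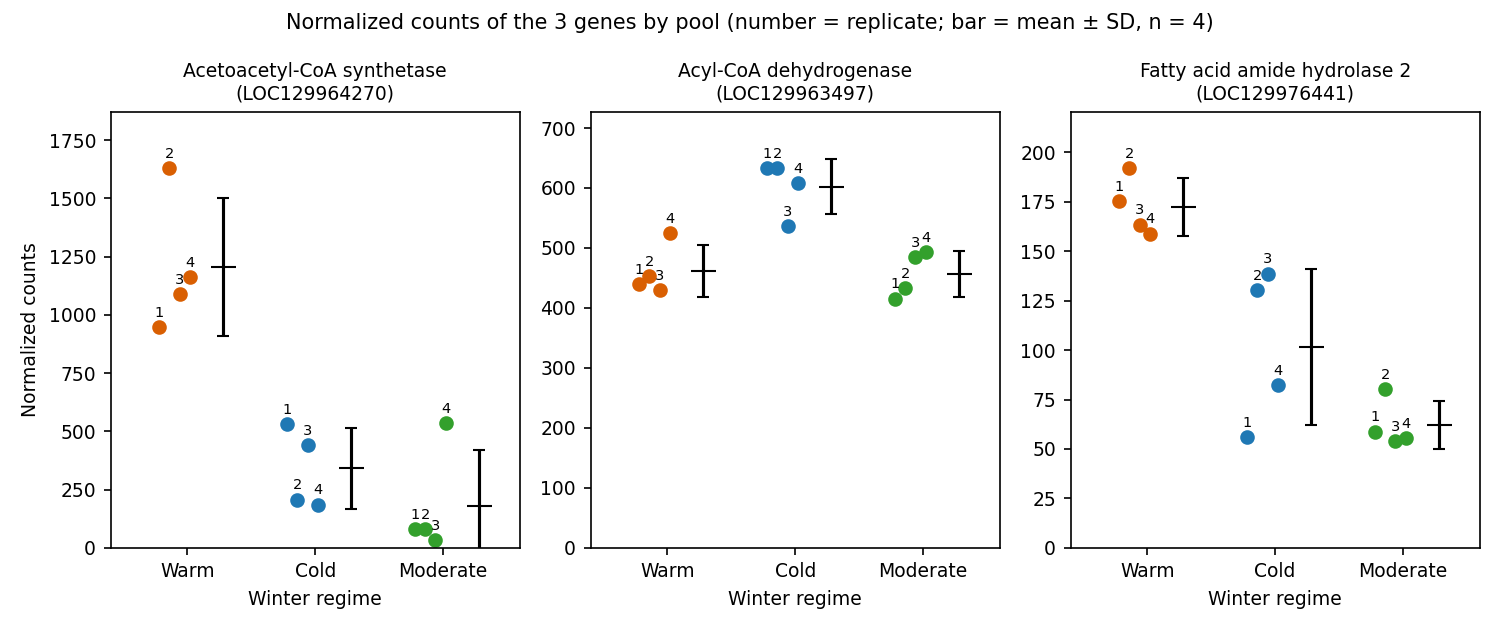
Normalized counts (y axis, linear from 0, a scale for each gene) of the 3 genes in the warm, cold and moderate regimes (x axis). Points are pools numbered by replicate, and black bars are the mean ± SD of 4 pools, the lower bar for acetoacetyl-CoA synthetase in moderate running below 0 and ending at the axis. Acetoacetyl-CoA synthetase at 536 in moderate replicate 4 lies far above the other moderate pools, while fatty acid amide hydrolase 2 in that pool, at 55.4, does not.

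On the log2 scale the fitted difference of this gene was 2.73 (standard error 0.66) in warm against moderate, a 6.65-fold higher level with a 95% interval of 2.49 to 17.7. It was 1.82 (standard error 0.63) in warm against cold, or 3.53-fold, and 0.91 (standard error 0.64) in cold against moderate, or 1.88-fold with an interval of 0.727 to 4.87. Without moderate replicate 4 the warm level was 19.1-fold that of moderate and the cold level 5.41-fold that of moderate, while warm against cold was 3.53-fold as before. The choice of the gene used these comparisons. The pools of warm lay above those of moderate without overlap for 5.29% of all genes tested, and above those of cold for 12.7%.

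The spread of acetoacetyl-CoA synthetase between pools was among the widest in the table. Its biological coefficient of variation in the fit, the spread between pools of a regime beyond counting error, was 0.612, against a median of 0.191 over all genes, and 99.0% of genes had a lower one. Within regimes the coefficient of variation was 24.5% in warm, 50.5% in cold and 130.5% in moderate, where counting error alone gives 2.815%, 5.25% and 7.875%. The level in moderate replicate 4 was 6.65 times the median of the other moderate pools, a larger ratio than for 99.9% of genes tested. In that pool the summed heat shock genes were within the range of the warm pools, and what part this had in the level of acetoacetyl-CoA synthetase was not tested.

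Acyl-CoA dehydrogenase was highest in the cold regime and nearly equal in the other regimes. The warm pools had 440, 453, 430 and 525 normalized counts. The cold pools had 633, 633, 536 and 608, and the moderate pools 415, 432, 485 and 493. Every cold pool lay above every warm and every moderate pool, and warm and moderate pools were interleaved. The gap was narrow, with the highest warm pool at 525, the lowest cold pool at 536 and the highest moderate pool at 493.

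Acyl-CoA dehydrogenase was chosen on cold against moderate, at 0.40 on the log2 scale, from these same cold pools. Its warm and moderate levels were nearly equal, so warm against cold largely repeats that choice. The p-values and calls given here are therefore not independent of the choice. The level in warm was 462 ± 43.0 (SD, n = 4), against 602 ± 45.7 in cold (SD, n = 4), 1.30-fold lower in warm, or -0.38 ± 0.11 (SE) on the log2 scale. With p adjusted over all genes in edgeR's quasi-likelihood fit, this missed the threshold of 0.05 (adjusted p = 0.0602). In this comparison 2.77% of the genes tested were called lower in warm, and for 13.8% all warm pools lay below all cold pools. The exact permutation test gave p = 0.0286 (two-sided, n = 4 each), the smallest that 4 against 4 pools allow, and 0.0571 after adjustment over the 4 comparisons. The call was made by DESeq2's Wald test (adjusted p = 0.0156), limma with voom sample weights (0.00682) and edgeR on only the warm and cold pools (0.0157). It was also made by edgeR without moderate replicate 4 (0.0268) or moderate replicate 2 (0.0306). These fits called many genes in either direction, 12.3% of all genes in DESeq2 and 26.5% in limma. The edgeR fits called 3272 genes on only the compared regimes, 2237 without moderate replicate 4 and 1865 without moderate replicate 2, against 769 in the main fit. Over the 8 alternatives that kept all pools or only the compared regimes, the adjusted p ranged from 0.00682 to 0.112, and the difference stayed between -0.39 and -0.34.

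In warm against moderate acyl-CoA dehydrogenase differed by 0.02 ± 0.11 on the log2 scale (SE; edgeR, adjusted p = 0.931). The 95% interval of the ratio ran from 0.856 to 1.20, so these pools leave room for a change of up to about that size in either direction. In this comparison 4.08% of all genes were called. The difference in cold against moderate, which led to the choice of the gene, was 0.40 (standard error 0.11), or 1.32-fold, and 3.34% of all genes had cold pools that all lay above the moderate pools. With each pool left out in turn it stayed between 0.36 and 0.45, and it was 0.44 without moderate replicate 4.

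The pools of a regime agreed closely for this gene. Its biological coefficient of variation was 0.1235, and 8.34% of genes had a lower one. The coefficient of variation within regimes was 9.305% in warm, 7.585% in cold and 8.38% in moderate, beside 4.54%, 3.98% and 4.91% from counting. Moderate replicate 4 was at 1.14 times the median of the other moderate pools.

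Fatty acid amide hydrolase 2 was highest in warm, lowest in moderate, and split in cold. The warm pools had 175, 192, 163 and 159 normalized counts, from 165 to 199 reads. The cold pools had 55.8, 130, 139 and 82.3, and the moderate pools 58.6, 80.3, 54.1 and 55.4, from 49 to 61 reads. All warm pools lay above all cold and all moderate pools. In cold, replicates 2 and 3 lay above every moderate pool, replicate 4 just above the highest of them and replicate 1 within their range.

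In warm against cold the level was 172 ± 14.7 and 102 ± 39.4 (SD, n = 4 each). The difference was 0.76 ± 0.25 (SE) on the log2 scale, or 1.70-fold with a 95% interval of 1.16 to 2.48. All warm pools lay above all cold pools for 12.7% of the genes tested. With each pool left out in turn the difference ran from 0.56, without cold replicate 1, to 0.95, without cold replicate 3.

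In cold against moderate the level was 102 ± 39.4 and 62.1 ± 12.3 (SD, n = 4 each), which differ by 0.71 ± 0.26 (SE) on the log2 scale. No tool called it (adjusted p = 0.328 in edgeR, 0.174 in DESeq2 and 0.112 in limma), and the pools overlapped (exact permutation test, two-sided, p = 0.114, n = 4 each; 0.152 after adjustment over the 4 comparisons). The ratio was 1.64 with a 95% interval of 1.11 to 2.43. In this comparison 0.0142% of all genes were called.

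The comparison that led to the choice of fatty acid amide hydrolase 2 was warm against moderate, at 1.48 ± 0.26 (SE) on the log2 scale, or 2.79-fold. It kept its size without moderate replicate 4, at 2.69-fold, and stayed between 1.42 and 1.62 on the log2 scale with each pool left out in turn. The biological coefficient of variation was 0.252, and 72.3% of genes had a lower one. In moderate replicate 4, where acetoacetyl-CoA synthetase was high, the level of this gene was 0.946 times the median of the other moderate pools and within their range.

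**Figure D2:**
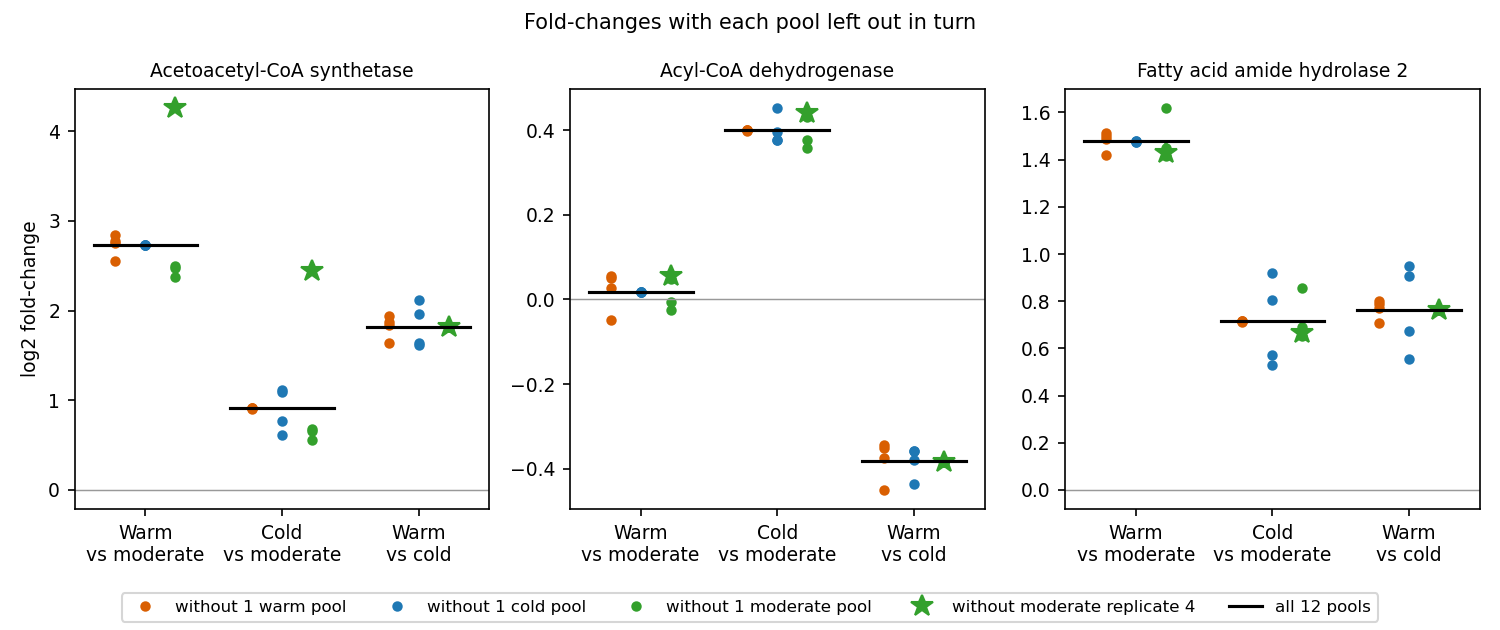
Log2 fold-change (y axis, a scale for each gene) of the 3 genes in each comparison of regimes (x axis). Black lines are the fits to all 12 pools, and points are fits without 1 pool, coloured by its regime. Without moderate replicate 4 (star) the fold-change of acetoacetyl-CoA synthetase moves to 4.26 in warm against moderate and 2.44 in cold against moderate, while no such shift appears for the other genes.

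Acetoacetyl-CoA synthetase and fatty acid amide hydrolase 2 had the same order of regime means, warm above cold above moderate, but not the same order of pools. In cold, acetoacetyl-CoA synthetase was higher in replicates 1 and 3, at 532 and 440, than in replicates 2 and 4, at 206 and 184. Fatty acid amide hydrolase 2 was higher in replicates 2 and 3, at 130 and 139, and lowest in replicate 1, at 55.8. Acyl-CoA dehydrogenase differed least between the cold pools, with its lowest value, 536, in replicate 3.

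The study names 6 other genes of lipid metabolism and transport, which it also picked from these pools, so their counts are not independent of the comparisons. In warm against cold, 5 of the 6 were called by edgeR's quasi-likelihood test, 2 higher and 3 lower, where 5.47% of all genes were called, 2.7% higher and 2.77% lower. In warm, diacylglycerol kinase 1, which phosphorylates diacylglycerol, was higher than in cold by 1.13 on the log2 scale (standard error 0.17), and the low-density lipoprotein receptor, which takes up lipoproteins, by 1.19 (standard error 0.20). Phospholipase A2, which frees fatty acids from phospholipids, was at -1.94 (standard error 0.25) in warm against cold. Lysophospholipid acyltransferase, which puts a fatty acid back onto a lysophospholipid, had -0.75 (standard error 0.11) and nose resistant to fluoxetine, which is linked to lipid transport in Caenorhabditis elegans, -0.57 (standard error 0.14). The adjusted p-values of these 5 genes were 0.00661, 0.00994, 0.00520, 0.00658 and 0.0369 in edgeR, in the order given. Apolipophorins-like, a carrier of lipids between tissues, was at -0.77 (SE 0.25), which edgeR did not call (adjusted p = 0.0782).

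In warm against moderate, 1 of these 6 genes was called in edgeR, phospholipase A2 at -1.42 (SE 0.25 and adjusted p = 0.0395), against 4.08% of all genes. DESeq2 called 4, against 16.2% of all genes. Leaving out moderate replicate 4, edgeR called 4 as well, but 4419 genes over the whole table, against 573 with all pools. In cold against moderate edgeR called 0 of 6, against 0.0142% of all genes. Leaving out moderate replicate 4, it called 2, but 650 genes over the whole table, against 2 with all pools. With all pools, 5 of the 6 had an unadjusted p under 0.05 in edgeR, against 12% of all genes. DESeq2 and limma called 4 each in that comparison, against 1.38% and 5.72% of all genes. The median log2 fold-change of the list was -0.66 in warm against cold, 0.29 in warm against moderate and 0.45 in cold against moderate, and the median over all genes was within 0.01 of 0 in each. Acyl-CoA dehydrogenase had the same signs as lysophospholipid acyltransferase in cold against moderate (0.40 and 0.39) and in warm against cold (-0.38 and -0.75). In warm against moderate the values of these genes were 0.02 and -0.36. Apolipophorins-like (1.02 and -0.77), nose resistant to fluoxetine (0.91 and -0.57) and phospholipase A2 (0.52 and -1.94) had the same signs in the first 2 comparisons too. Diacylglycerol kinase 1 (-0.65 and 1.13) and the low-density lipoprotein receptor (-0.48 and 1.19) had the opposite signs there. Of the 5 heat shock genes, edgeR called 1 lower in warm than in cold, where 2.77% of all genes were called lower. Without moderate replicate 4 it called 4 of them, and 2237 genes over the whole table, against 769 with all pools. The study picked these genes for being lower in warm than in moderate in these pools. It also lists the small heat shock protein and alpha-crystallin A chain-like for warm against cold, so these counts are not independent of the choice.

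**Figure D3:**
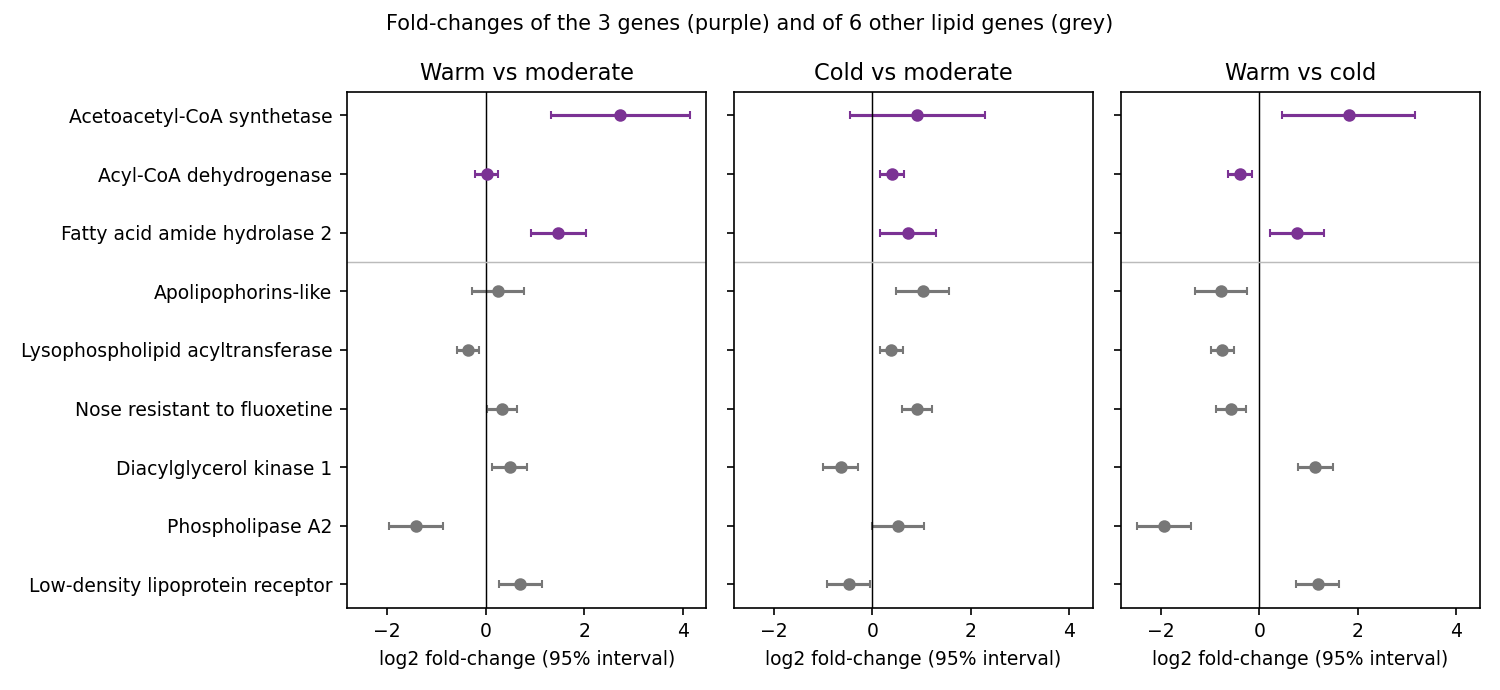
Log2 fold-change with its 95% interval (x axis, the same in each panel) of the 3 genes (purple) and of 6 other lipid genes named by the study (grey, y axis) in warm against moderate, cold against moderate and warm against cold. The widest interval belongs to acetoacetyl-CoA synthetase, and acyl-CoA dehydrogenase is at 0.02 in warm against moderate.

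For each member the 5 genes with the most similar pattern were found by Pearson correlation of log2 CPM over the 12 pools, among 11584 other genes with a mean of at least 50 normalized counts. The pools share regimes, cabinets and libraries, so these correlations describe the pattern and are no test. The genes were picked for following their member over these same pools. High or low pools and regimes that they share with it largely follow from that choice. No names for these genes were used here.

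The genes most like acetoacetyl-CoA synthetase were LOC129968516 (r = 0.963), LOC129957589 (0.961), LOC129965995 (0.957), LOC129981042 (0.956) and LOC129981691 (0.955), over 12 pools and on 5 different chromosomes. In all of them moderate replicate 4 was above the other moderate pools. LOC129981042 had 802 normalized counts there, against at most 196 in the other moderate pools, 993 to 1286 in warm and 455 to 943 in cold. Without moderate replicate 4 the correlations of the 5 genes were 0.955 to 0.985. An r of at least 0.9 was found for 43 of the 11584 genes.

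Fewer genes followed acyl-CoA dehydrogenase, with r of at least 0.9 for 2 genes, LOC129971385 (r = 0.913) and LOC129975465 (0.904). LOC129988239 (0.887), LOC129971397 (0.872) and LOC129963514 (0.865) came next. LOC129971397 had 998 to 1403 normalized counts in warm, 2222 to 2644 in cold and 1150 to 1587 in moderate, with no overlap of cold with the other regimes. Cold pools all lay above moderate pools for 3.34% of genes tested, and warm pools all below cold pools for 13.8%. The gene was picked for following acyl-CoA dehydrogenase, so this is no separate result. LOC129963514 lies on chromosome 3, as acyl-CoA dehydrogenase does, but far from it, at 90854819 to 90866842. Without moderate replicate 4 LOC129963514 had rank 13 by correlation (r = 0.865), while LOC129971385, LOC129975465, LOC129988239 and LOC129971397 had ranks 1, 3, 5 and 4.

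Fatty acid amide hydrolase 2 was followed at r of at least 0.9 by 1 gene, LOC129962099 (r = 0.923), which had 872 to 996 normalized counts in warm, 602 to 940 in cold and 677 to 732 in moderate. Next were the long non-coding RNA gene LOC129960979 (0.889), LOC129959986 (0.860), LOC129974880 (0.856) and LOC129981389 (0.844). This list depended on moderate replicate 4. Without that pool LOC129962099 and LOC129960979 had ranks 7 and 2 by correlation. LOC129959986, LOC129974880 and LOC129981389 then had ranks 68, 54 and 191, with r = 0.865, 0.8745 and 0.826. In LOC129959986 the cold pools ran from 186 to 345 normalized counts, below all warm pools at 370 to 504, as for 12.7% of the genes tested. In 4 of the 5 genes the lowest cold value was in replicate 1, the pool in which fatty acid amide hydrolase 2 was lowest too, and in LOC129974880 it was in replicate 4, at 176, beside 183 in replicate 1. This likeness is largely built in by the choice of the genes.

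**Figure D4:**
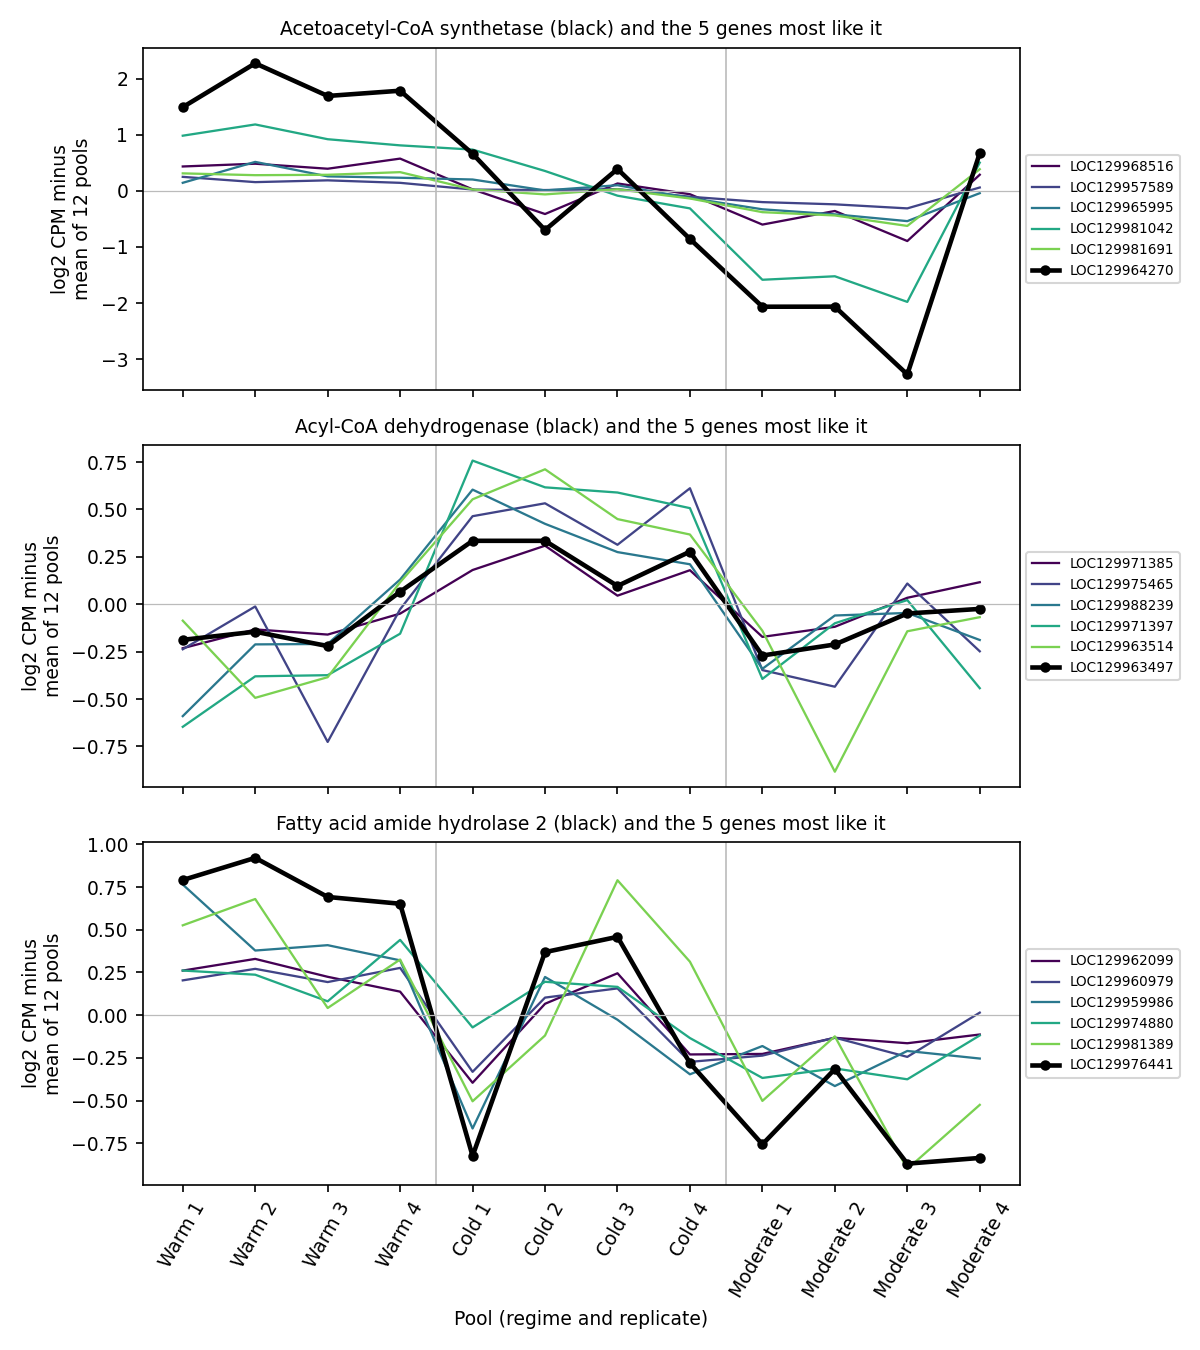
Log2 CPM minus the mean over 12 pools (y axis, a scale for each panel) of each member (black) and the 5 genes most correlated with it, in the pools of the warm, cold and moderate regimes (x axis). Acetoacetyl-CoA synthetase and its 5 genes are higher in moderate replicate 4 than in the other moderate pools, acyl-CoA dehydrogenase and its 5 genes are high in the cold pools, and fatty acid amide hydrolase 2 and 4 of its 5 genes have their lowest cold value in replicate 1. These shared patterns largely follow from the choice of the genes by correlation over the same pools.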

How the data were processed

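The authors depleted ribosomal RNA, made directional libraries, sequenced paired ends, mapped reads with STAR 2.7.11a and deposited raw counts per gene from featureCounts (Subread 2.0.6). Strand and multimapping options are not given in the sources used here. The table lists 37459 genes, 2 without values, and 0 sample columns were left unused. Of the gene identifiers, 20591 were found in the annotation of assembly qqArgBrue1.1, used for positions only.

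Genes were kept by filterByExpr (minimum count 10) and fitted over all 12 pools with TMM factors and the quasi-likelihood test of edgeR 4.0.16 (R 4.3.3), adjusted by Benjamini and Hochberg's method at a false discovery rate of 0.05. The study used DESeq2, which was run as an alternative (1.42.0), as were limma 3.58.1, other factors, filters, sample sets and a replicate block. Exact permutation tests were two-sided on the difference in mean normalized counts. Correlations used log2 CPM (prior count 2). Named genes were the 3 enzymes, the other lipid and heat shock genes the study names, the 5 most correlated genes of each enzyme and the chromosomal neighbours. The study describes fatty acid amide hydrolase 2 in warm against cold, so that comparison, planned as a test, is given without one. The members and lists were chosen with earlier results of these data known. Lists by product name or protein similarity were not used here. Counts of replicate pools differed beyond sampling noise. The scripts were tested on simulated data.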

Additional observations from a re-analysis of the deposited data

Results flagged for a closer look

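Each regime of 4 pools was screened for a pool far from the rest with Dixon's test, in the 3 enzymes, the 6 other lipid genes and the 5 heat shock genes. Of 42 sets of 4 pools, 4 had such a pool, and chance alone gives about 5%. Acetoacetyl-CoA synthetase had 536 normalized counts in moderate replicate 4, against 33.04 to 78.9 in the other moderate pools. The low-density lipoprotein receptor had 287 in the same pool, against 215 to 222. Nose resistant to fluoxetine had 384 in moderate replicate 3, against 277 to 293, and alpha-crystallin B chain-like, a small heat shock protein, had 352 in cold replicate 3, against 232 to 251. Of the 3 enzymes, only acetoacetyl-CoA synthetase had such a pool.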

How the results depend on the processing

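Acetoacetyl-CoA synthetase rested most on 1 pool. With pools left out in turn its log2 fold-change ran from 2.38 to 4.26 in warm against moderate, 0.56 to 2.44 in cold against moderate and 1.62 to 2.12 in warm against cold, and limma with voom sample weights gave 4.13 in warm against moderate and 1.98 in cold against moderate, beside 0.91 in edgeR. Acyl-CoA dehydrogenase in warm against moderate ran from -0.050 to 0.056 and changed sign without warm replicate 4 (-0.050), moderate replicate 1 (-0.03) or moderate replicate 2 (-0.0067). In cold against moderate it ran from 0.36 to 0.45. In warm against cold it ran from -0.45 to -0.34 and was called in 2 of 12 such fits, without moderate replicate 2 or 4, and also by DESeq2 (-0.38), limma (-0.39) and edgeR on only those regimes (-0.38). These calls rest on the cold pools behind the choice of the gene and are not independent of it. Fatty acid amide hydrolase 2 ran from 0.56 to 0.95 in warm against cold, where DESeq2 gave 0.77 and limma 0.85, from 0.53 to 0.92 in cold against moderate and from 1.42 to 1.62 in warm against moderate. The cause of these differences was not tested.

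Calls among the 6 other lipid genes were 0 in cold against moderate, with 1 under upper-quartile factors, 1 without a filter, 4 by DESeq2 and 4 by limma, and 1 in warm against moderate, with 4 by DESeq2, 4 by limma and 0 on only the compared regimes. Leaving out pools gave 0 to 2, 0 to 4 and, in warm against cold, 4 to 6. Calls among the 5 heat shock genes were 0 in cold against moderate (1 by limma), 5 in warm against moderate (1 under upper-quartile factors, 0 on only the compared regimes) and 1 in warm against cold (2 without a filter, 2 with at least 10 counts in every pool, 2 by DESeq2, 4 by limma, 4 on only the compared regimes), with 0 to 1, 0 to 5 and 0 to 4 when pools were left out. Over all genes, edgeR called 2 in cold against moderate (5 under upper-quartile factors, 5 without a filter, 189 by DESeq2, 804 by limma, 0 on only the compared regimes, 0 to 650 with pools left out). It called 573 in warm against moderate (95 under upper-quartile factors, 2216 by DESeq2, 5096 by limma, 0 on only the compared regimes, 0 to 4419 with pools left out) and 769 in warm against cold (1731 by DESeq2, 3727 by limma, 3272 on only the compared regimes, 115 to 2237 with pools left out). Of the fits with a pool left out, the one without moderate replicate 4 gave the highest count over all genes in each comparison.

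Deviations of same-numbered pools correlated between -0.0742 and 0.121, with 1 of 12 pairs over 0.1. The sources do not say how pools were numbered, and differently numbered pools were not compared. These values therefore cannot tell whether the replicate numbers pair the pools. With the replicate number as a block, acyl-CoA dehydrogenase was at -0.39 in warm against cold (not called), fatty acid amide hydrolase 2 was at 0.82 there and acetoacetyl-CoA synthetase at 1.39 in cold against moderate, and calls over all genes were 0 in cold against moderate, 472 in warm against cold and 14 in warm against moderate, where 0 of the 5 heat shock genes were called. The planned counts over genes with similar proteins, and over lists made by product name, were not run. The reads of these genes were few in moderate, with 49 to 61 for fatty acid amide hydrolase 2 and 33 to 82 for acetoacetyl-CoA synthetase in replicates 1 to 3.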

Other observations

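The genes next to each enzyme on the chromosome, 6 in all, were not called by edgeR's quasi-likelihood test in any comparison of regimes. Over all genes the share called was 5.47% between warm and cold, 4.08% between warm and moderate, and 0.0142% between cold and moderate. With shares this low, the lack of a call among 6 genes says little about these neighbours. Acyl-CoA dehydrogenase has the closest ones, LOC129964220 at 243 bases and LOC129962706 at 308 bases. In warm against cold LOC129964220 was at -0.19 on the log2 scale (adjusted p = 0.420 from edgeR) and LOC129962706 at -0.57 (adjusted p = 0.210 from edgeR). In warm against moderate LOC129962706 was at -0.91 (adjusted p = 0.0629 from edgeR), short of a call, and LOC129964220 at -0.18. In cold against moderate LOC129964220 was at 0.00 and LOC129962706 at -0.34. Beside acetoacetyl-CoA synthetase, LOC129963297 lies 4256 bases and LOC129963179 17150 bases away, and in warm against moderate they were at -0.19 and -0.16. In warm against cold they were at -0.82 and 0.35, and in cold against moderate at 0.62 and -0.51. The neighbours of fatty acid amide hydrolase 2, LOC129975384 and LOC129976159, had at most 17 reads in a pool.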
